A study of Mus musculus with 2 samples.

Results

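The 7 genes described here encode enzymes and an enzyme partner that make small inflammatory mediators: Nos2, Acod1, Ptgs2, Ptges, Ptgs1, Hpgds and Alox5ap, chosen by name from the 32228 genes of the count matrices. Their unique molecular identifiers (UMIs, each standing for 1 captured mRNA molecule) were counted in every barcode with at least 500 UMIs, at least 200 genes and less than 5% mitochondrial UMIs, within 6 classes of cells gated on marker genes. The classes were monocyte-like, C1q macrophage-like, neutrophil-like, dendritic-like, mast-like and ILC2-like cells, and each needed at least 3 of 8 markers above the level that cell-free RNA could give. None of the 7 genes was a gate marker.

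The study compared the colonic lamina propria of WT mice and of mice with a Ring1a knockout (Ring1AKO in the labels, Ring1aKO below), all C57BL/6, labelled 8 to 10 weeks old and all given dextran sulfate sodium (DSS), a polysaccharide in the drinking water that injures the colonic epithelium. Live CD45+ cells, that is leukocytes, were sorted from 5 pooled mice per genotype and made into 1 10x Genomics 3′ library each, with no untreated animals. How the knockout was made is not given in the sources used here. With 1 library per genotype no difference below has a replicate check, no test was run, and genotype, mouse pool and library batch cannot be told apart. Levels are UMIs of a gene per 1000000 UMIs of a class (CPM) with exact Poisson 95% intervals, ratios are log2 of Ring1aKO over WT with 1 UMI added to each sum and an exact conditional 95% interval, and all intervals cover counting error only.

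Nos2 encodes inducible nitric oxide synthase, which makes nitric oxide from arginine in activated myeloid cells. Acod1 encodes the mitochondrial enzyme that turns the citrate-cycle intermediate cis-aconitate into itaconate, an immunomodulatory acid. Ptgs1 and Ptgs2 encode the constitutive and inducible cyclooxygenases that turn arachidonic acid into prostaglandin H2, which Ptges turns into prostaglandin E2 and Hpgds into prostaglandin D2, while Alox5ap encodes the protein that presents arachidonic acid to 5-lipoxygenase for leukotriene synthesis. In the colon prostaglandin E2 is known for its part in epithelial repair.

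The WT-labelled library held 6262 cells with a median of 6108.5 UMIs and the Ring1aKO-labelled library 8474 cells with a median of 4825 UMIs, from totals of 74414511 and 81862096 UMIs, and 15 cell barcodes occurred in both. Ring1, the targeted gene, stood at 13.4 CPM (12.5 to 14.3) in the WT-labelled library and at 11.9 CPM (11.1 to 12.7) in the Ring1aKO-labelled library, so the 3′ counts do not by themselves separate the genotypes, and whether the counted part of the gene was deleted is not given. The 6 classes took 27.2% of the WT-labelled and 13.3% of the Ring1aKO-labelled cells. Monocyte-like cells numbered 812 and 221, C1q macrophage-like cells 297 and 320, neutrophil-like cells 244 and 282, dendritic-like cells 114 and 126, mast-like cells 9 and 46, and ILC2-like cells 228 and 131. Cells exactly at 3 markers made up 16.5% and 15.8% of the monocyte-like cells, 3.28% and 11.7% of the neutrophil-like cells and 42.1% and 41.3% of the dendritic-like cells. In each class the 10 genes most raised over the remaining cells held 2 to 6 of its own markers and 0 of another class's. These lists follow in part from the gate, which chose cells by the same markers, and do not measure purity. Among monocyte-like cells 72.3% and 86.4% had 2 or more markers of another list. The mast gate also took cells with a basophil marker (Mcpt8 or Prss34), 8 of 9 in the WT-labelled library and 18 of 46 in the Ring1aKO-labelled library.

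Each gene had its own distribution over the classes. Acod1 was highest in neutrophil-like cells, Ptgs1 in C1q macrophage-like cells, Hpgds in mast-like cells and Alox5ap in neutrophil-like cells in both libraries. The highest class changed between the libraries for Nos2, from monocyte-like to neutrophil-like cells, and for Ptgs2, from neutrophil-like to monocyte-like cells. Ptges was highest in monocyte-like cells in both libraries, but there the intervals of monocyte-like and C1q macrophage-like cells of the Ring1aKO-labelled library overlapped. Because 3′ counting captures genes with unequal efficiency, a level is compared below only with the same gene elsewhere.

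**Figure D1:**
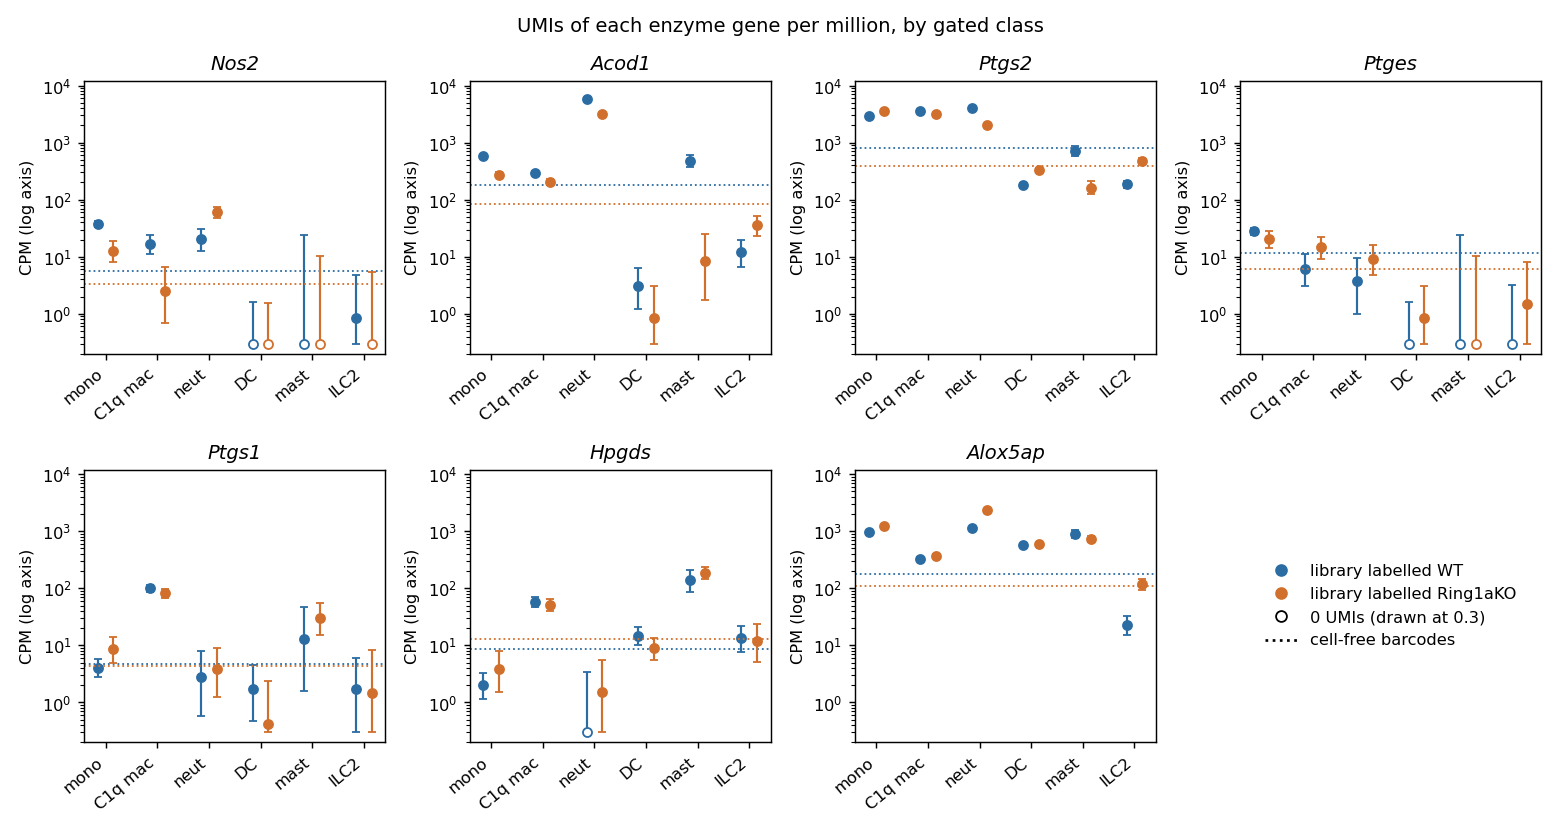
CPM (log axis) of each gene in the 6 gated classes of the libraries labelled WT (blue) and Ring1aKO (orange), with exact Poisson 95% intervals; open circles mark 0 UMIs, and dotted lines the level in barcodes under 100 UMIs (cell-free). Acod1 stood at 5882 and 3200.3 CPM in neutrophil-like cells and below 600 CPM in the other classes, and Ptgs2 was above its cell-free level in monocyte-like, C1q macrophage-like and neutrophil-like cells of both libraries.

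Nos2 (ENSMUSG00000020826, GRCm38 chr11:78920787-78960254, plus strand) was a rare transcript carried by few cells. In monocyte-like cells of the WT-labelled library it had 298 UMIs, or 38.0 CPM (33.8 to 42.6), in 38 of 812 cells, and in the Ring1aKO-labelled library 23 UMIs, or 12.5 CPM (7.93 to 18.8), in 7 of 221 cells. The log2 ratio was -1.55 (-2.28 to -0.99). A single cell held 56 of the 298 UMIs, and without the top cell of each library the log2 ratio was -1.83. Cells with 2 or more markers of another list made up 72.3% and 86.4% of the monocyte-like cells and 6.56% and 11.7% of the neutrophil-like cells. Without them the monocyte-like Nos2 level labelled WT was 78.9 CPM (66.3 to 93.0), from 140 UMIs over 225 cells. The level labelled Ring1aKO was 29.0 CPM (9.43 to 67.8), from 5 UMIs over 30 cells. These separate intervals overlapped narrowly, which does not show that the levels were alike. In neutrophil-like cells the order was the opposite, with 22 UMIs in 11 of 244 cells (20.4 CPM, 12.7 to 30.8) in the WT-labelled library and 79 UMIs in 24 of 282 cells (60.3 CPM, 47.7 to 75.2) in the Ring1aKO-labelled library, a log2 ratio of 1.52 (0.87 to 2.32). These neutrophil-like intervals did not overlap. Without the neutrophil-like cells that had markers of another list the levels were 21.1 CPM (12.7 to 33.0) and 60.7 CPM (46.8 to 77.5), which did not overlap either. In C1q macrophage-like cells Nos2 went from 16.7 to 2.54 CPM, but 18 of the 30 UMIs labelled WT lay in 1 cell, and without the top cell of each library the interval, -4.28 to 0.08, held 0. Cells of this class with 2 or more markers of another list held 27 of those 30 UMIs and 4 of the 4 labelled Ring1aKO. Dendritic-like and mast-like cells had 0 Nos2 UMIs in both libraries, which allows up to 1.31 and 1.27 CPM in dendritic-like cells and 19.7 and 8.40 CPM in mast-like cells (the limit of 3 UMIs, which is one-sided and so lies below the upper ends of the two-sided intervals), and ILC2-like cells had 1 and 0 UMIs.

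The classes that held Nos2 differed between the libraries. Of all Nos2 UMIs in cells, monocyte-like cells held 69.1% in the WT-labelled library and 17.2% in the Ring1aKO-labelled library, and neutrophil-like cells held 5.10% and 59.0%. These shares also depend on class size, and its part in them was not tested. Monocyte-like cells numbered 812 of 6262 cells (WT-labelled) and 221 of 8474 cells (Ring1aKO-labelled), and neutrophil-like cells 244 and 282. Over all cells Nos2 stood at 6.94 CPM (6.30 to 7.63) and 1.93 CPM (1.62 to 2.28). After each cell was thinned to 2000 UMIs, leaving out shallower cells, 3.05% of 787 and 1.43% of 210 monocyte-like cells had a Nos2 UMI, with exact binomial intervals of 1.96 to 4.50% and 0.296 to 4.12% that overlap. The thinned shares in neutrophil-like cells, 3.45% of 203 and 5.86% of 222, overlapped as well (1.397 to 6.98% and 3.15 to 9.81%), and B cells, which should lack the gene, had 0.0871% and 0.0296%. The libraries differed in summed Nos2 UMIs beyond counting error, which does not cover how these UMIs clustered in few cells. A difference in the share of positive cells was not detectable at this depth.

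Acod1 (ENSMUSG00000022126, chr14:103046977-103056573, plus strand) was carried by most neutrophil-like cells. It had 6358 UMIs there in the WT-labelled library (5882 CPM, 5738 to 6028) and 4192 in the Ring1aKO-labelled library (3200.3 CPM, 3104 to 3299), a log2 ratio of -0.88 (-0.93 to -0.82). At 2000 UMIs per cell, 97.0% of the WT-labelled and 91.0% of the Ring1aKO-labelled neutrophil-like cells had an Acod1 UMI, against 1.31% and 1.00% of B cells and 1.57% and 0.912% of T cells. The median neutrophil-like cell held 12 thinned UMIs in the WT-labelled library (quartiles 6 and 18.5) and 6 in the Ring1aKO-labelled library (quartiles 3 and 10.75). The intervals of the thinned neutrophil-like shares, 93.7 to 98.9% and 86.4 to 94.4%, overlapped. Without thinning 96.7% of 244 and 87.2% of 282 neutrophil-like cells had an Acod1 UMI. The unthinned median depths of the neutrophil-like cells were 3986 and 4529.5 UMIs, those of B cells 4339.5 and 4431 UMIs, and thinning left out 41 and 60 neutrophil-like cells.

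Monocyte-like cells also had less Acod1 in the Ring1aKO-labelled library, with 4635 UMIs (592 CPM, 575 to 609) against 506 UMIs (275 CPM, 252 to 300) and a log2 ratio of -1.10 (-1.24 to -0.97). In the same cells the summed level of the 8 monocyte markers was 10948 and 7755 CPM and that of the 8 C1q macrophage markers 1537 and 3563 CPM, all 8 of each list with UMIs in both libraries, and their part in the Acod1, Nos2 and Arg1 differences of this class was not tested. The thinned shares, 40.4% (37.0 to 43.9%) and 33.3% (27.0 to 40.1%), overlapped in their intervals. In C1q macrophage-like cells Acod1 stood at 293 and 204 CPM, a log2 ratio of -0.52 (-0.72 to -0.32). That direction rested on cells with markers of more than 1 list: 86.9% of these UMIs in the WT-labelled library and 61.1% in the Ring1aKO-labelled library lay in cells with 2 or more markers of another list, and without those cells the levels were 129 and 195 CPM. The neutrophil-like levels without such cells were 6621 and 3672 CPM. Dendritic-like cells had 7 and 2 Acod1 UMIs. Mast-like cells went from 478 to 8.40 CPM, where 60 of the 73 UMIs labelled WT lay in 1 of 9 cells. ILC2-like cells went from 11.9 CPM (6.50 to 19.96) to 35.5 CPM (22.7 to 52.8), both below the cell-free levels of 180 and 83.0 CPM.

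The share of Acod1 UMIs held by neutrophil-like cells was 47.1% in the WT-labelled library and 68.3% in the Ring1aKO-labelled library, and that of monocyte-like cells 34.4% and 8.24%. Class size enters these shares too, with 244 and 282 neutrophil-like and 812 and 221 monocyte-like cells, and its part was not tested. Over all cells Acod1 was at 217 and 88.3 CPM, and the cell-free profile differed in the same direction.

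**Figure D2:**
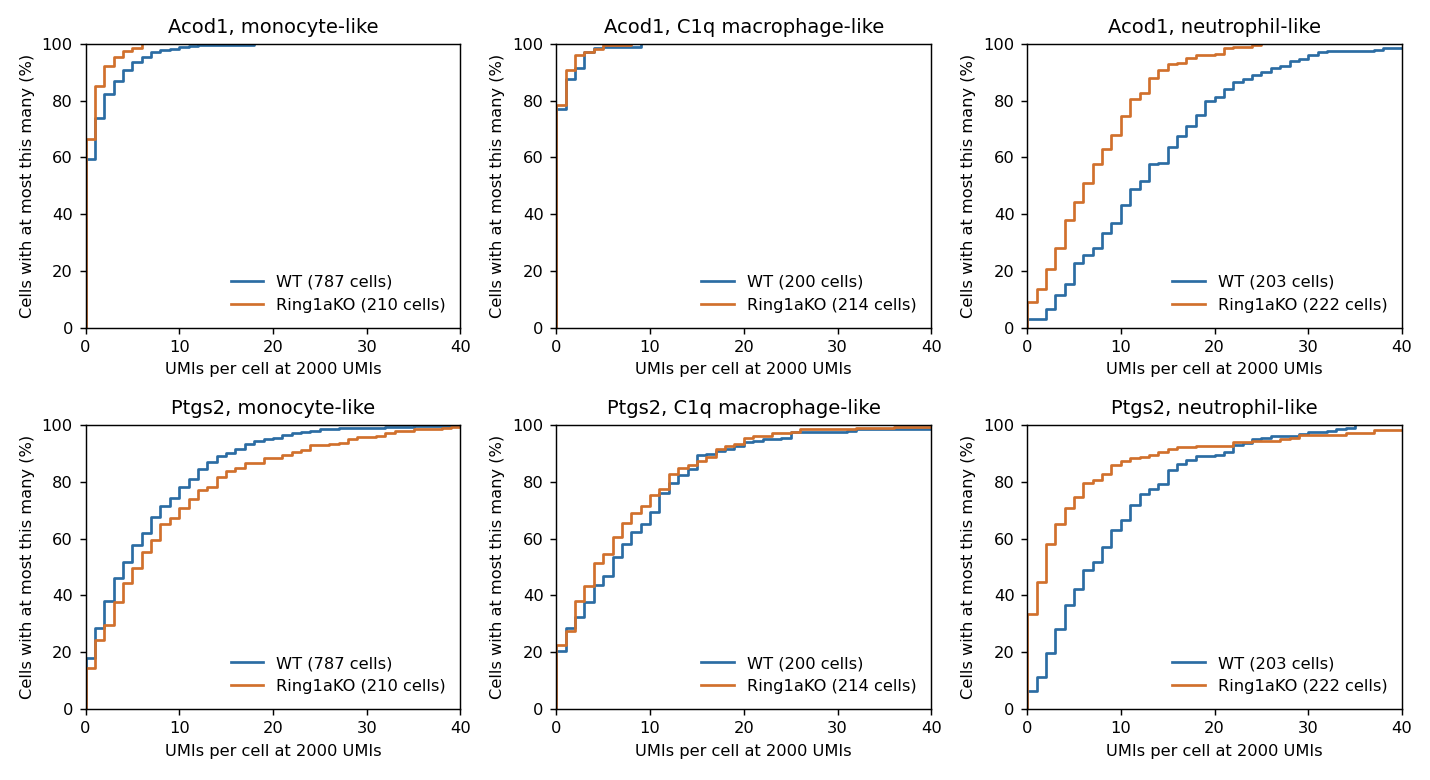
Cumulative share of cells (%) against UMIs of Acod1 (top) or Ptgs2 (bottom) per cell after thinning to 2000 UMIs, in monocyte-like, C1q macrophage-like and neutrophil-like cells of the libraries labelled WT (blue) and Ring1aKO (orange); the axis stops at 40 UMIs. The neutrophil-like Acod1 curve labelled Ring1aKO lies left of the other, with medians of 6 and 12 UMIs, and 74 of its 222 cells had 0 Ptgs2 UMIs against 13 of 203.

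Acod1 and Ptgs2 both had lower levels in neutrophil-like cells of the Ring1aKO-labelled library, and the RefSeq sequences before their start sites are shown for that reason (GRCm38.p6, both on the plus strand, 250 bases ending at the base before the RefSeq start, chr14:103046762-103047011 and chr1:150099781-150100030). RefSeq promoters of 5 of the 7 genes were matched by symbol. Capitals mark matches, on either strand, to 7 motifs: TATAAA, GGG with any 5 bases before CC (a relaxed NF-kB core), TTCNNNGAA (gamma-activated site), GAAA with any 2 bases before another GAAA (interferon-response core), TGANTCA (AP-1), TGACG (the core of a cyclic-AMP response element) and TTGCNNAA (C/EBP).
Acod1: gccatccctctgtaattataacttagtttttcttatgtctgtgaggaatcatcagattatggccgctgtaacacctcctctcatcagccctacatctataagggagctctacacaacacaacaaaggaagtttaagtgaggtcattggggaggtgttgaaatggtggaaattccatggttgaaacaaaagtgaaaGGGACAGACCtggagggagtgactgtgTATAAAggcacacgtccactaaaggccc
Ptgs2: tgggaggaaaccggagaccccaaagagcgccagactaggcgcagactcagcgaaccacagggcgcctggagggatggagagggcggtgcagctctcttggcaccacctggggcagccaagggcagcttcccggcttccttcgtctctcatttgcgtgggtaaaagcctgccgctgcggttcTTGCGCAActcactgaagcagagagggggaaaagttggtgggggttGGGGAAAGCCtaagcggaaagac
The Acod1 window held TATAAA at 28 to 23 bases before the start, a motif found in 12.4% of 32851 promoter windows of that length, and the relaxed NF-kB core at 55 to 46 bases, found in 45.8%. The Ptgs2 window held the same relaxed core at 23 to 14 bases and a palindromic C/EBP match at 69 to 62 bases, found in 9.56%. The gamma-activated site, found in 7.02% of windows, and the interferon-response core, found in 2.98%, had no match in these 2 windows.

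Ptgs2 (ENSMUSG00000032487, chr1:150100031-150108227, plus strand) was high in 3 classes at once. Monocyte-like cells had 22521 and 6637 UMIs, or 2875 CPM (2837 to 2913) and 3610.3 CPM (3524 to 3698), a log2 ratio of 0.33 (0.29 to 0.37). C1q macrophage-like cells stood at 3631 CPM (3543 to 3720.3) and 3176 CPM (3088 to 3265), a log2 ratio of -0.19 (-0.25 to -0.14). Both differences are small beside the neutrophil-like one, from 4087 CPM (3968 to 4209) to 2038 CPM (1961 to 2116), with a log2 ratio of -1.004 (-1.07 to -0.93). At 2000 UMIs per cell the share of neutrophil-like cells with a Ptgs2 UMI was 93.6% (89.3 to 96.5%) and 66.7% (60.0 to 72.8%), so these intervals did not overlap. The medians were 7 and 2 UMIs per neutrophil-like cell, 4 and 6 per monocyte-like cell and 6 and 4 per C1q macrophage-like cell.

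Ptgs2 in the other classes was lower than in those 3. Dendritic-like cells had 179 CPM (162 to 197) and 336 CPM (313 to 360.0), a log2 ratio of 0.91 (0.73 to 1.08), both below the cell-free levels of 818 and 390 CPM. Of these UMIs 69.9% and 61.0% lay in cells with 2 or more markers of another list, and without such cells the levels were 76.7 and 226 CPM, a log2 ratio of 1.55. Among all dendritic-like cells, those with a type 2 marker (Cd209a or Clec10a) stood at 866 and 1217 CPM, from 14 and 16 cells. Mature cells (at least 2 of Ccr7, Fscn1 and Ccl22) stood at 368 and 648 CPM, from 31 and 40 cells. Cells with a type 1 marker (Xcr1 or Clec9a) stood at 37.5 and 93.7 CPM, from 58 and 63 cells. In the type 2 cells labelled WT 84 of the 172 Ptgs2 UMIs lay in 1 cell. ILC2-like cells had 187 and 474 CPM, a log2 ratio of 1.34, but 87 of the 321 UMIs labelled Ring1aKO lay in 1 cell, and 49.5% of them lay in the 26 of 131 cells with 2 or more markers of another list. Without such cells the ILC2-like levels were 191 and 334 CPM. Mast-like cells went from 721 to 162 CPM, with 46 of the 110 UMIs labelled WT in 1 cell. Over all cells Ptgs2 stood at 757 and 347 CPM, and stromal or epithelial cells, few in a CD45+ sort (63 and 32), had 811 and 836 CPM.

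Ptgs1 (ENSMUSG00000047250, chr2:36230426-36252272, plus strand) was, among the 6 classes, highest in C1q macrophage-like cells. It had 99.7 CPM (85.7 to 116) and 81.4 CPM (67.9 to 96.8) in C1q macrophage-like cells, and the log2 ratio of -0.29 (-0.63 to 0.04) held 0. Outside the 6 classes, the 63 and 32 stromal or epithelial cells had 86.55 CPM (63.8 to 115) and 60.9 CPM (36.1 to 96.3). These intervals overlapped those of C1q macrophage-like cells in each library. The next levels among the 6 classes were those of mast-like cells, 13.1 CPM from 2 UMIs and 30.8 CPM from 11 UMIs. Monocyte-like cells had 4.08 and 8.70 CPM, from 32 and 16 UMIs, near the cell-free 4.71 and 4.31 CPM. Without the C1q macrophage-like cells that had 2 or more markers of another list the levels were 215 CPM (177 to 258) and 111 CPM (86.6 to 140), which do not overlap, at a log2 ratio of -0.95. In monocyte-like cells the log2 ratio was 1.13, with an interval that left out 0, and, without the top cell of each library (6 and 5 UMIs), 0.93 with an interval of -0.31 to 1.93 that held 0.

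Ptges (ENSMUSG00000050737, chr2:30889471-30929863, minus strand) had its highest level of the 6 classes in monocyte-like cells, with 217 UMIs (27.7 CPM, 24.1 to 31.6) and 37 UMIs (20.1 CPM, 14.2 to 27.7), and the log2 ratio of -0.43 (-1.01 to 0.05) held 0. C1q macrophage-like cells had 11 and 23 UMIs, or 6.13 and 14.6 CPM, a log2 ratio of 1.19 (0.16 to 2.44). All 11 labelled WT and 13 of the 23 labelled Ring1aKO lay in cells with 2 or more markers of another list. Monocyte-like and C1q macrophage-like cells of the Ring1aKO-labelled library lay above its cell-free 6.02 CPM, while the C1q macrophage-like cells labelled WT lay below theirs, 11.8 CPM. Neutrophil-like cells had 4 and 12 UMIs, 10 of the 12 in 1 cell. Of all Ptges UMIs in cells, monocyte-like cells held 44.8% and 12.8%, plasma cells 16.9% and 33.7% and stromal or epithelial cells 15.5% and 18.4%. These shares also depend on class size and depth, and the plasma cell levels were 3.82 and 4.32 CPM, below the cell-free levels. At 2000 UMIs per cell 3.56% and 5.24% of monocyte-like cells had a Ptges UMI, against 0.0871% and 0.0591% of B cells. Among monocyte-like cells with a Ptgs2 UMI the shares were 4.02% (2.64 to 5.83%) and 5.56% (2.70 to 9.98%). Among those without one they were 1.43% (0.17 to 5.07%) and 3.33% (0.084 to 17.2%), and the intervals overlapped in each library.

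Hpgds (ENSMUSG00000029919, chr6:65117293-65144908, minus strand), the prostaglandin D2 synthase of haematopoietic cells, was highest in mast-like cells, at 138 CPM (85.2 to 210) from 21 UMIs and 188 CPM (145 to 238) from 67 UMIs, a log2 ratio of 0.40 (-0.28 to 1.23) that held 0. All 21 UMIs labelled WT lay in the 8 cells with a basophil marker, and 35 of the 67 labelled Ring1aKO lay in cells without one. C1q macrophage-like cells followed, with 57.4 CPM (46.8 to 69.6) and 51.5 CPM (40.9 to 64.0). Dendritic-like cells had 14.9 and 8.92 CPM and ILC2-like cells 13.6 and 11.8 CPM, and their intervals overlapped in each library. Neutrophil-like cells had 0 and 2 UMIs. For Hpgds no ratio in any of the classes with at least 10 UMIs lay beyond counting error.

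Alox5ap (ENSMUSG00000060063, chr5:149264767-149288153, plus strand) was present in every myeloid class. Neutrophil-like cells went from 1232 UMIs (1140 CPM, 1077 to 1205) to 3109 UMIs (2373 CPM, 2291 to 2458), a log2 ratio of 1.06 (0.96 to 1.15), the opposite direction to Acod1 and Ptgs2 in the same class. In this class the 8 neutrophil markers summed to 138454 and 188666 CPM. Plasma cell markers summed to 631 and 1488 CPM and B cell markers to 21.3 and 162 CPM, while stromal or epithelial markers summed to 332 and 24.4 CPM. Their part in the Nos2, Acod1, Ptgs2 and Alox5ap differences of this class was not tested. The thinned share of neutrophil-like cells was 80.3% (74.1 to 85.5%) and 92.3% (88.0 to 95.5%). Monocyte-like cells had 981 and 1256 CPM (log2 ratio 0.36, 0.29 to 0.42), C1q macrophage-like cells 333 and 367 CPM (0.14, -0.03 to 0.31), dendritic-like cells 579 and 603 CPM (0.06, -0.05 to 0.17) and mast-like cells 904 and 728 CPM (-0.32, -0.62 to -0.0043). Of the C1q macrophage-like UMIs 86.8% and 74.2% lay in cells with 2 or more markers of another list. Without those cells the levels were 147 CPM (117 to 184) and 233 CPM (197 to 273), which did not overlap, beside cell-free levels of 176 and 108 CPM. Of the 138 mast-like UMIs labelled WT 43 lay in 1 cell. Without the top cell of each library the mast-like interval, -0.47 to 0.24, held 0. Among dendritic-like cells, those with a type 1 marker had 697 and 759 CPM and mature cells 198 and 225 CPM, with intervals that did not overlap in either library. ILC2-like cells had 27 UMIs (22.9 CPM) and 80 UMIs (118 CPM), but 23 of the 27 and 79 of the 80 lay in cells with 2 or more markers of another list, and without those cells 4 and 1 UMIs were left, or 3.91 and 2.06 CPM. Alox5, whose product Alox5ap serves, was sparse: 31.5 and 36.6 CPM in neutrophil-like cells, 216 and 193 CPM in mast-like cells, and 5 and 0 UMIs in monocyte-like cells.

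**Figure D3:**
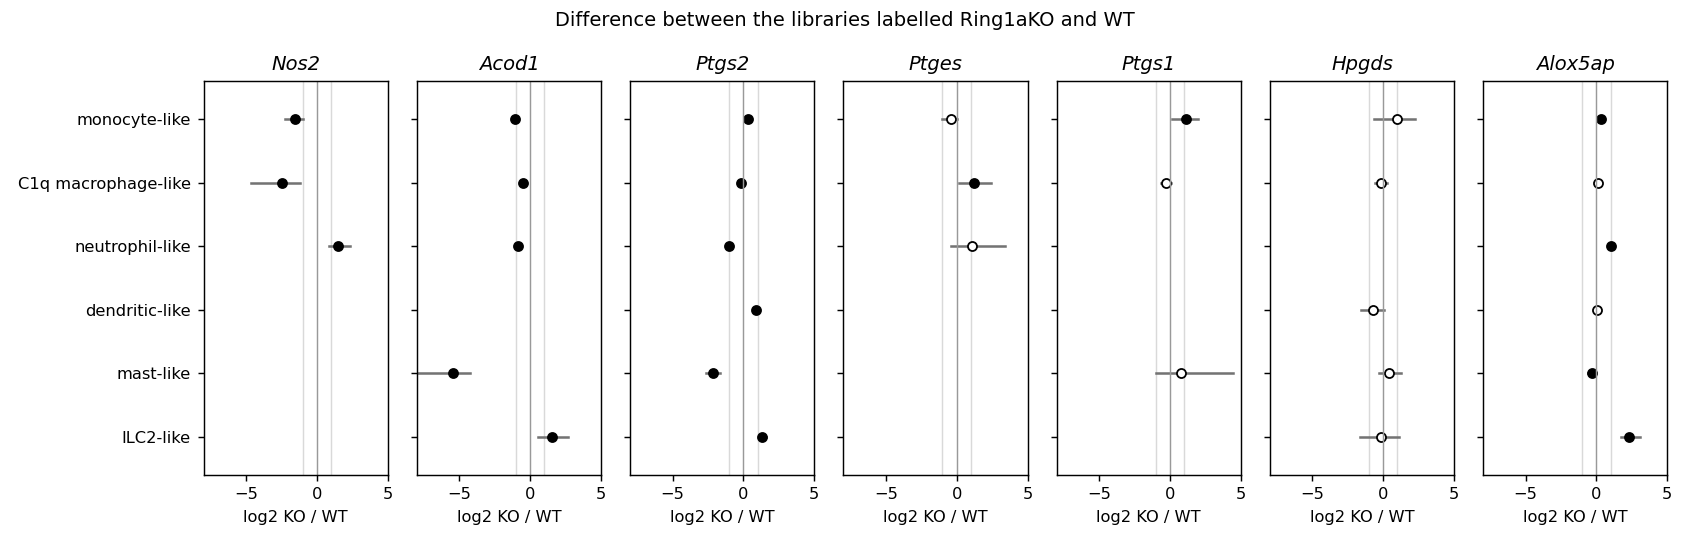
Log2 ratio of the Ring1aKO-labelled library over the WT-labelled library for each gene and class with at least 10 UMIs, with exact 95% intervals (lines, cut at -8 and 5); filled points have intervals that leave out 0, and pale lines mark 2-fold. In neutrophil-like cells Nos2 and Alox5ap lie right of 0, at 1.52 and 1.06, and Acod1 and Ptgs2 left of it, at -0.88 and -1.004.

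The count of the 7 genes past 2-fold is read against all genes with at least 20 UMIs in the class. In monocyte-like cells 12.1% of all genes were past 2-fold, and of the 7 measured Ptgs1 and Hpgds were higher and Nos2 and Acod1 lower, the Hpgds interval holding 0 and Ptgs1 under 2-fold without its top cells. In neutrophil-like cells 14.3% of all genes were past 2-fold, and of the 4 measured Nos2 and Alox5ap were higher and Ptgs2, just at the limit, lower. The background was 6.94% in C1q macrophage-like cells, where Ptges was higher and Nos2 lower of 7, and 9.35% in dendritic-like cells, with 0 of 3. In ILC2-like cells the background was 11% and Acod1, Ptgs2 and Alox5ap were higher of 4, and without the cells with 2 or more markers of another list Alox5ap had too few UMIs for a ratio and Ptgs2 was under 2-fold. Among mast-like cells, where 17.1% of all genes were past 2-fold, Acod1 and Ptgs2 were lower of 4. The median log2 ratio of the measured members was 0.33 in monocyte-like cells, against -0.15 over all genes, and 0.09 in neutrophil-like cells, against -0.18. It was 0.06 against -0.17 in dendritic-like and 1.44 against -0.05 in ILC2-like cells. In C1q macrophage-like cells it was lower than over all genes, -0.19 against -0.02, as in mast-like cells, -1.23 against -0.13. These medians rest on 3 to 7 genes, and the neutrophil-like one lies between genes of opposite direction.

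**Figure D4:**
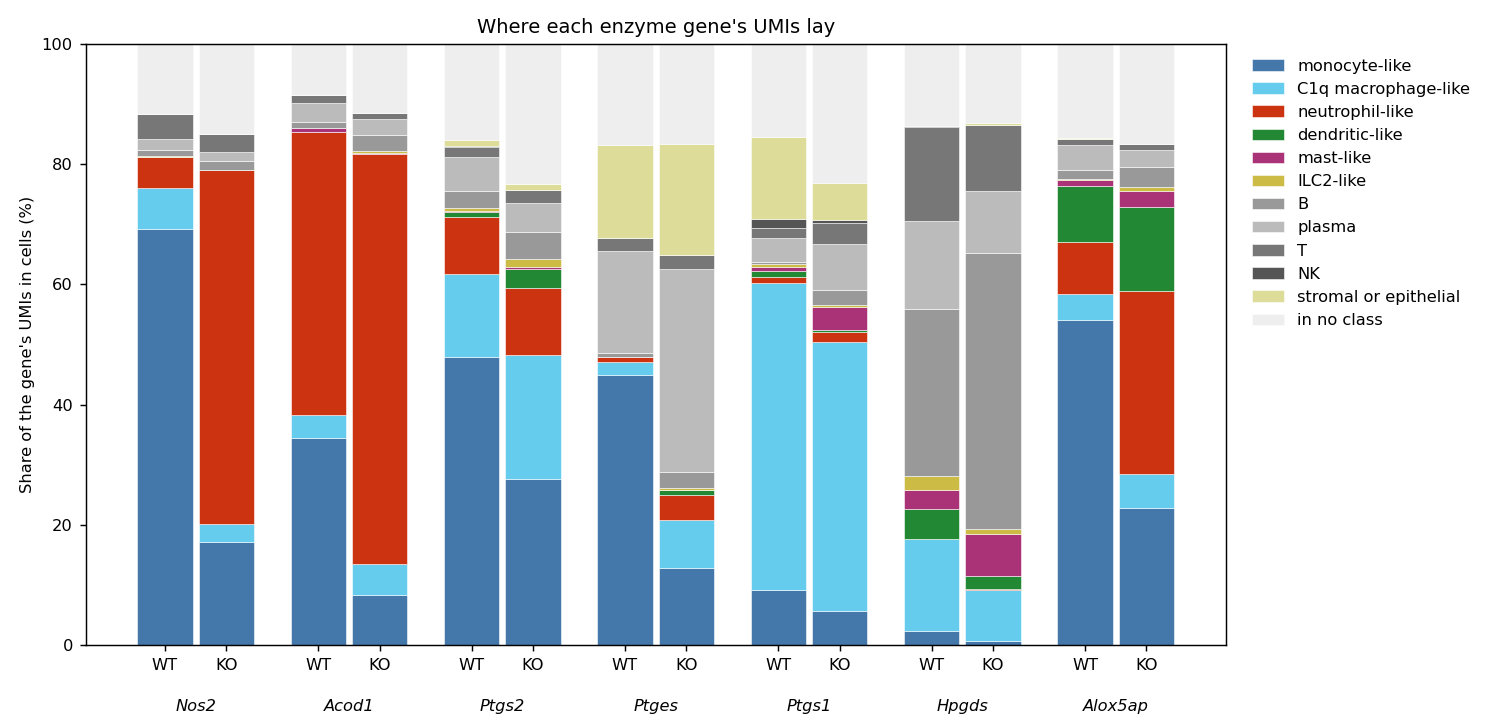
Share of each gene's UMIs in cells (%) held by each class, in the libraries labelled WT and Ring1aKO (KO); grey marks B, plasma, T and NK cells and the palest part cells in no class. The largest Nos2 share is 69.1% in monocyte-like cells (WT) and 59.0% in neutrophil-like cells (KO). The 6 classes together held 28.1% and 19.2% of the Hpgds UMIs and 47.9% and 26.0% of the Ptges UMIs, so both genes lie largely outside them. Shares also depend on class size (812 and 221 monocyte-like, 244 and 282 neutrophil-like cells).

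Co-detection within single cells at 2000 UMIs was compared between cells with and without each gene. Of the 24 monocyte-like cells labelled WT with a Nos2 UMI, 18 had an Acod1 UMI (75%, 53.3 to 90.2%), against 39.3% of the 763 without (35.8 to 42.9%). Acod1-positive monocyte-like cells had a Ptgs2 UMI in 93.1% against 74.8% of the others in the WT-labelled library and in 95.7% against 80.7% in the Ring1aKO-labelled library, and C1q macrophage-like cells in 93.5% against 75.3% and 95.7% against 72.6%. Hpgds ran the other way: of the C1q macrophage-like cells with an Hpgds UMI, 0 of 24 labelled WT and 2 of 18 labelled Ring1aKO had an Acod1 UMI, against 26.1% and 22.4% of the others, with overlapping intervals in the Ring1aKO-labelled library. Cells of this class with 2 or more markers of another list held 86.9% and 61.1% of its Acod1 UMIs. They held 77.8% and 72.4% of its Ptgs2 UMIs and 35.9% and 27.2% of its Hpgds UMIs. Their part in the Ptgs2 and Hpgds patterns of this class was not tested. In neutrophil-like cells of the Ring1aKO-labelled library the Ptgs2 share was 66.8% of 202 cells with Acod1 (59.9 to 73.3%). Without Acod1 it was 65% of 20 cells (40.8 to 84.6%), too few to tell whether the shares differed. Of monocyte-like cells with an Alox5ap UMI 37.6% and 30.2% had an Acod1 UMI, against 52.7% and 51.6% of those without, and these intervals overlapped for Ring1aKO.

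Across the 12 values of 6 classes in 2 libraries, Pearson's r of log2(CPM + 1) named the genes most alike in pattern, as a description over points that share libraries. For Nos2 these were Pgd, Slfn1 and Prdx5 (r = 0.94 each), for Acod1 Osm, Xylt1 and Clec4e (0.96, 0.95 and 0.94) and for Ptgs2 Igsf6, Il1a and Gda (0.97, 0.95 and 0.95). Ptges was closest to Chil3, a gate marker of monocyte-like cells, Sod2 and Cflar (0.96 each), Ptgs1 to Itga9, Dtx4 and Tpp1 (0.98, 0.94 and 0.93), Hpgds to Mtss1, Pom121 and Hspa9 (0.95, 0.94 and 0.92) and Alox5ap to Ifitm2, Flot1 and Sort1 (0.95, 0.92 and 0.90). Among the 7 genes themselves the highest r was 0.87, between Ptgs2 and Ptges, and the lowest -0.63, between Nos2 and Hpgds.

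Genes around the same pathways were described from lists chosen by name. Of 10 genes of nitric oxide and arginine metabolism, 9 were measured in monocyte-like cells, and 2 were past 2-fold higher and 0 lower, against 3.99% and 8.09% of all genes: Arg1, whose product competes with nitric oxide synthase for arginine, went from 12.0 to 56.6 CPM (log2 ratio 2.24, 1.82 to 2.66) and Arg2 from 112 to 224 CPM (1.003). In C1q macrophage-like cells 2 of 8 were higher and 0 lower, against 3.76% and 3.18% of all genes, Arg1 among them (18.9 to 50.2 CPM, log2 ratio 1.38) beside Slc7a2, and in ILC2-like cells 1 of 6 was higher, Ass1, against 4.35% of all genes. Gch1, which makes the tetrahydrobiopterin cofactor that nitric oxide synthase needs, stood at 163 and 294 CPM in monocyte-like, 112 and 199 CPM in C1q macrophage-like, 155 and 189 CPM in neutrophil-like and 413 and 1019 CPM in mast-like cells, with log2 ratios of 0.85, 0.83, 0.28 and 1.29, of which the neutrophil-like interval held 0. Monocyte-like cells of the Ring1aKO-labelled library thus had lower Nos2 and higher Arg1 levels in CPM. Of the itaconate and citrate list, 0 of 10 measured genes were higher and 2 lower in monocyte-like cells (Aco1 and, with 23 and 1 UMIs and an interval that held 0, Clybl, both named after their values were seen) and 0 of 9 moved past 2-fold in C1q macrophage-like cells.

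Of the 19 prostanoid genes 11 were measured in monocyte-like cells, 1 higher past 2-fold (Ptger2) and 2 lower (Ptges2, with 36 and 2 UMIs, and Tbxas1), against the same shares of all genes. In neutrophil-like cells 0 of 4 measured were higher and 2 lower, against 3.41% and 10.9% of all genes, with a median log2 ratio of -1.06 against -0.18: Ptger4 (22 and 11 UMIs) and Pla2g4a (15 and 7 UMIs, with an interval that held 0). In monocyte-like cells Tbxas1, the thromboxane synthase, went from 28.6 to 13.6 CPM (log2 ratio -1.02, -1.73 to -0.47), while the prostaglandin E2 receptor gene Ptger4 stood at 63.6 and 46.8 CPM (-0.43) and Hpgd, whose product inactivates prostaglandins, at 6.51 and 6.53 CPM. In C1q macrophage-like cells Ptger4 stood at 154 and 114 CPM (-0.44, -0.72 to -0.16) and Tbxas1 at 61.9 and 54.7 CPM. Ptgdr2, a receptor for prostaglandin D2, had 1 UMI in monocyte-like and 1 in dendritic-like cells of the WT-labelled library and 0 in the other classes and library. Of the 8 leukotriene genes, Ltc4s, the leukotriene C4 synthase, stood at 30.6 and 42.0 CPM in C1q macrophage-like cells and 32.8 and 17.0 CPM in dendritic-like cells. In ILC2-like cells the leukotriene B4 receptor gene Ltb4r1 went from 40.8 to 132 CPM (1.68) and the cysteinyl leukotriene receptor gene Cysltr1 from 90.1 to 41.4 CPM (-1.09). These were 1 higher and 1 lower of 4 measured there, against 4.35% and 6.68% of all genes. Cells with 2 or more markers of another list made up 10.96% and 19.8% of this class, and their part in both levels was not tested.

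Among the inducers and co-induced cytokines, Irf1, which encodes a transcription factor downstream of interferon, was past 2-fold lower in 3 classes. Of the 12 listed genes 11 were measured in monocyte-like, C1q macrophage-like and neutrophil-like cells, with 1, 0 and 0 higher and 2 lower in each. Over all genes 3.99%, 3.76% and 3.41% were higher and 8.09%, 3.18% and 10.9% lower. Irf1 went from 435 to 109 CPM in monocyte-like cells (log2 ratio -1.99, -2.21 to -1.79), from 213 to 86.5 CPM in C1q macrophage-like cells (-1.29) and from 287 to 78.6 CPM in neutrophil-like cells (-1.86). In neutrophil-like cells Nos2 thus had the opposite direction to Irf1. Il1b stood at 11496 and 12871 CPM in monocyte-like cells, 10754 and 9178 CPM in C1q macrophage-like cells and 23165 and 14242 CPM in neutrophil-like cells (log2 ratio -0.70, -0.73 to -0.67). Il1a went from 159 to 391 CPM in monocyte-like cells (1.30). Tnf stood at 178 and 172 CPM in monocyte-like cells, with an interval that held 0, and at 272 and 356 CPM in neutrophil-like cells (0.39, 0.17 to 0.60). In ILC2-like cells Il1b (245 and 856 CPM) and Cebpb (134 and 352 CPM), and in dendritic-like cells Cxcl2 (158 and 404 CPM), were past 2-fold higher, while in mast-like cells Il1b, Il6 and Cxcl2 were past 2-fold lower from 9 cells labelled WT. Of the list, 3 of 11 measured genes were higher and 1 lower in ILC2-like cells, against 4.35% and 6.68% of all genes. The dendritic-like counts were 3 and 1 of 12, against 2.26% and 7.09%. The mast-like counts were 1 and 4 of 9, against 5.86% and 11.3%. In the ILC2-like cells the summed monocyte markers were at 267 and 424 CPM and cells with 2 or more markers of another list made up 10.96% and 19.8%, and their part in the Il1b and Cebpb levels was not tested. Cells with such markers made up 32.5% and 42.1% of the dendritic-like cells, and their part in the Cxcl2 levels was not tested either.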

How the data were processed

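CD45+ cells of the colonic lamina propria were measured in 1 library per genotype. The authors deposited, for every barcode with or without a cell, the raw counts of UMIs of each gene. The paper's methods name CellRanger-count 3.0.1 and mm10, the matrix header Cell Ranger 4, and the submitters' processing notes Cell Ranger 6.0.2, mm39 and Seurat. The kit is v3 in the labels and v3.1 in the methods, which give 8 to 12 weeks as the age. Gene positions came from GENCODE vM21 (GRCm38) by gene ID, promoters from RefSeq (GRCm38.p6).

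Barcodes were filtered as stated in the report. A marker was detected above the 99% Poisson quantile of a 10% share of the cell-free profile (barcodes under 100 UMIs). A cell took the class with the largest share of its markers, at least 3, and ties were left out. A cell gated to 1 of the 6 classes with at least 3 markers of B, plasma, T, NK or stromal or epithelial cells was left out (60 and 77 cells). No doublet caller was run. UMIs were summed per class with Python 3.11.15, numpy 2.4.6, scipy 1.17.1 and pandas 2.3.3. A ratio needed 10 UMIs over both libraries, a count past 2-fold 20 and a likeness value 50. Thinning drew 2000 UMIs per cell (seed 1). The steps were tested on simulated data, with Poisson class sums and with cells drawn from the profiles of the gated classes. Such draws cannot check the effect of UMIs clustered in single cells or the purity of the classes. Besides the 7 members, the list genes past 2-fold with at least 100 UMIs, 10 further list genes and the 3 most alike genes per member were named. The members and lists were chosen with earlier results of these data known, and marker gates differ from the study's clusters, so its cell names need not match. The alternatives were other limits on UMIs, genes, mitochondrial and ribosomal shares, markers, denominator, thinning and cell-free RNA. A gene of the lists is not reported here.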

Additional observations from a re-analysis of the deposited data

Results flagged for a closer look

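The Nos2 log2 ratio of Ring1aKO over WT was 1.52 in neutrophil-like and -2.44 in C1q macrophage-like cells, 3.96 apart with opposite signs, and the difference was not tested. Of the 30 WT UMIs of the C1q macrophage-like cells 18 lay in 1 cell, and without the top cells that ratio was -1.51 (-4.28 to 0.08). Cells with 2 or more markers of another list held 27 of those 30 UMIs and 4 of the 4 Ring1aKO UMIs. Acod1 had 1.54 in ILC2-like and -1.10 in monocyte-like cells, 2.64 apart and not tested, with 14 and 24 UMIs behind the ILC2-like value. Ptgs2 had 1.34 in ILC2-like and -1.004 in neutrophil-like cells, 2.35 apart and not tested, with 87 of the 321 Ring1aKO UMIs of the ILC2-like cells in 1 cell. Outside the 6 classes, Hpgds stood above the cell-free 8.50 and 12.8 CPM in B cells, at 27.5 CPM (WT) and 24.1 CPM (Ring1aKO), against 10.9 and 9.67 CPM in T cells. B cells held 27.8% and 46.0% of the Hpgds UMIs in cells and made up 18.5% and 40.2% of the cells. Ptges stood at 135 and 179 CPM in the 63 and 32 stromal or epithelial cells, against cell-free levels of 11.8 and 6.02 CPM.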

How the results depend on the processing

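No paired analysis was possible because WT and Ring1aKO had 1 library each. Of 324 values of the 31 log2 ratios under the alternatives, 317 kept their direction and 7 did not. Of the ratios whose interval left out 0 and that kept at least 10 UMIs, the one that changed sign was Acod1 in C1q macrophage-like cells, at 0.59 without cells that had 2 markers of another list, an alternative chosen after seeing the data; the cause was not tested. Alox5ap in ILC2-like cells had 4 and 1 UMIs left in that setting (3.91 and 2.06 CPM), too few for a ratio, in the opposite order to its main levels. Ptgs1 in C1q macrophage-like cells moved to -0.95 in the same setting and to -0.78 as a mean of per-cell CPM. In neutrophil-like cells Acod1 was -0.78 with 4 markers and -0.98 as a per-cell mean, Ptgs2 was -0.87 as a per-cell mean, -0.76 thinned and -1.11 without cells of 2 other-list markers, and Alox5ap was 0.85 as a per-cell mean and 0.92 thinned. Counts of members past 2-fold were smaller or larger by over 1.5 times as follows. A member had to reach the UMI minimum within each setting, so a smaller count can also mean that fewer members were measured. No share over all genes was computed for these settings. Monocyte-like cells (4) had 1 when thinned and 2 with 4 markers, without other-list cells, without each top cell or with at least 100 UMIs per gene. C1q macrophage-like cells (2) had 1 with 4 or 2 markers or without each top cell and 0 when thinned, without other-list cells or with 100 UMIs. In the settings with 0, Nos2 and Ptges had too few UMIs to be counted, so their ratios were not judged there. Neutrophil-like cells (3) had 1 as a per-cell mean or thinned. Dendritic-like cells (0) had 2 with 4 markers and 1 after cell-free subtraction, without other-list cells or without each top cell. Mast-like cells (2) had 1 with 4 markers, without each top cell or with 100 UMIs, and no value without other-list cells, since 0 WT cells were left. ILC2-like cells (3) had 0 when thinned and 1 without other-list cells. When thinned, Acod1 and Alox5ap had too few UMIs to be counted in ILC2-like cells, and without other-list cells Alox5ap had too few. The top-cell and basophil-marker settings were also chosen after seeing the data. Depth limits Nos2, Ptges, Ptgs1 and Hpgds, which had under 100 UMIs in most classes.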
